A study of Mus musculus with 3 samples.

Results

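Interferon gamma, the chains of the receptors for interferon gamma and for the type I interferons, and the transcription factors beneath them are described here as 9 genes: Ifng, Ifngr1, Ifngr2, Ifnar1, Ifnar2, Stat2, Irf9, Irf1 and Irf7. They were taken by symbol, and all 9 were rows of both deposited expression tables, which hold 19208 genes for metastasis-bearing and 17453 for naive mouse brains. The RNA of single brain immune cells had been measured in 8 brains from C57Bl/6 females 2 to 3 months old, 2 brains for each of 4 groups. The groups were Cx3cr1+/- or Cx3cr1-/- mice (called heterozygous and homozygous below), either naive or carrying brain metastases about 2 weeks after E0771 cells had been injected through the carotid artery. Every mouse lacked at least 1 copy of Cx3cr1, so no group was wild type, and each sample was 1 brain hemisphere. The cells came off a Percoll gradient, and hashing antibodies (1 per brain, carrying a barcode) allowed all 8 to share 1 library.

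Cells found in both tables, 1138 barcodes, were left out, which left 8443 cells of metastasis-bearing and 2736 of naive brains. All 9581 and 3874 deposited cells carried the authors' singlet label from the hashtags, which can find doublets between brains but not within a brain, and no doublet caller was run here. UMIs are counted RNA molecules, and the deposited values are UMIs after a depth correction, not raw counts. Levels are CPM, that is, corrected UMIs of a gene per 1000000 corrected UMIs of all genes. Both were summed over the cells of 1 class in 1 brain. All UMIs of single genes given below are corrected ones. The authors' clusters were named by lists of marker genes, and a name ending in "-like" means no more than that. In metastasis-bearing brains 6 classes had at least 20 cells in every brain: Krt8-high (2732 cells, expressing keratin and cell division genes), monocyte/macrophage-like (1786), T-like (1201), NK-like (747), microglia-like (654) and vascular-like (454). In naive brains they were microglia-like (1234), T/NK-like (248) and vascular-like cells (140). Not all cells were immune cells as labelled: Krt8-high cells made up 17.1% and 8.31% of the heterozygous and 55.7% and 42.1% of the homozygous metastasis-bearing brains, and 136 cells of that cluster carried naive hashtags. Median raw UMIs per cell followed, at 8199.5 and 7823.5 against 71585 and 19767.5, and lay between 6181 and 7096 in naive brains. With metastases, Krt8-high cells had a median of 103002 raw and 12491 corrected UMIs. The medians were 4136 and 11125 in NK-like and 5409 and 11616 in T-like cells. Cx3cr1, the receptor lost by genotype, stood in microglia-like cells at 1363 and 1464 CPM in heterozygous and 114 and 31.6 CPM in homozygous metastasis-bearing brains, and at 1953, 1852, 75.6 and 71.4 CPM in naive brains, as the labels have it.

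Interferon gamma is a cytokine made chiefly by activated NK cells and T cells. It binds a receptor of paired chains, of which Ifngr1 binds the ligand and Ifngr2 is needed to start the signal, and Irf1 is one of the genes the signal induces. Type I interferons, such as interferon beta, bind the chains Ifnar1 and Ifnar2 instead, and activate a complex with Stat2 and Irf9 that switches on antiviral genes. Among these genes is Irf7, itself a transcription factor that amplifies type I interferon production. In the mouse genome (GRCm38.p6, from RefSeq) Ifnar2, Ifnar1 and Ifngr2 lie within 191.2 kb of chromosome 16, at chr16:91372783-91405589, chr16:91485032-91510523 and chr16:91547059-91564007, with Il10rb between the first pair. Ifng (chr10:118441046-118445894), Ifngr1 (chr10:19591949-19610229) and Stat2 (chr10:128270498-128292853) are on chromosome 10, Irf1 (chr11:53770014-53778374) on 11, Irf9 (chr14:55603985-55610030) on 14 and Irf7 (chr7:141263183-141266499) on 7.

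The promoter windows were searched for the letters through which these factors bind. All 9 genes had windows in the RefSeq table, 11 windows in all (Irf1 and Irf9 have 2 each), running from 250 bases before to 50 bases after a start site. The core of the interferon-stimulated response element, the binding site of the complex with Stat2 and Irf9, was searched as GAAANNGAAA or, on the other strand, TTTCNNTTTC. It was present in 1131 of 32851 mouse promoters (3.44%) and in 1 of the 11 windows, that of Stat2. The gamma-activated site, a motif of the interferon gamma pathway, was searched as TTCNNNGAA, whose opposite strand reads the same. It was present in 2726 promoters (8.30%) and in 4 of the 11 windows, those of Ifng, Irf1, Ifnar2 and Ifnar1. The matches for the factor of each pathway and for the ligand are shown with the match in capitals, at chr10:128270251-128270310 for Stat2 (plus strand, 222 bases before the start), chr11:53769899-53769957 for Irf1 (plus strand, 90 bases before) and chr10:118440796-118440830 for Ifng (plus strand, 249 bases before). The window of Irf7, the gene whose levels differed most between the genotypes below, is shown whole (chr7:141266375-141266674, minus strand) and held neither set of letters. These are matches of letters, and no binding was measured.
Stat2: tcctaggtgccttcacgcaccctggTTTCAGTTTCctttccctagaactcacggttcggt
Irf1: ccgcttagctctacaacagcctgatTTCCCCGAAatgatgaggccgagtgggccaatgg
Ifng: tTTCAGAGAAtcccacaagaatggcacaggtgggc
Irf7: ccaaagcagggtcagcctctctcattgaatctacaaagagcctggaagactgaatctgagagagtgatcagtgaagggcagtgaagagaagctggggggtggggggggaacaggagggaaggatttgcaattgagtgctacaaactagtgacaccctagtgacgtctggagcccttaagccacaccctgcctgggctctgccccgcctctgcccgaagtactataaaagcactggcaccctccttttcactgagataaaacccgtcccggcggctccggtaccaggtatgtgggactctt

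Most Ifng RNA of metastasis-bearing brains lay in T-like and NK-like cells, and most of that of naive brains in T/NK-like cells. Of 4479 Ifng UMIs in metastasis-bearing brains, T-like and NK-like cells together held 89.7% and 97.3% where Cx3cr1 was heterozygous and 92.5% and 82.9% where it was homozygous for the loss, 90.6% ± 6.01 (SD, n = 4). Monocyte/macrophage-like cells held 8.09%, 1.91%, 4.97% and 15.7%, in the same order. How the part in T-like and NK-like cells divided between them differed by brain. T-like cells held 22.1%, 69.6%, 37.3% and 16.9%, and NK-like cells 67.6%, 27.7%, 55.3% and 66.1%, in the same order. NK-like cells therefore held the larger share in 3 of 4 brains and T-like cells in the other, heterozygous brain 2. That brain also had the most cells of both classes (706 T-like and 401 NK-like) and the most Ifng UMIs (2572 of the 4479). Single T-like cells there held 576 and 418 of these UMIs. In naive brains T/NK-like cells held 86.1%, 58.3%, 88.9% and 74.4% of 304 Ifng UMIs. An unnamed cluster with neutrophil and monocyte markers held 8.86%, 34.0%, 2.78% and 12.8% there, the next largest share in total (54 UMIs).

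By level, Ifng stood in NK-like cells at 222 and 158 CPM in heterozygous and 302 and 303 CPM in homozygous brains. Both homozygous brains were above both heterozygous ones, yet the log2 difference of 0.66 (SE 0.15) did not pass (limma over all genes, adjusted p = 0.43). The sum of the 6 NK cell markers of that class moved with it, at 8270 and 9636 CPM in heterozygous and 10838 and 11959 CPM in homozygous brains (4 of 6 higher). The sum of the 6 T cell markers was lower in homozygous brains, at 382 and 316 against 263 and 270 CPM, though 3 of the 6 were higher. In T-like cells the levels were 25.5 and 217 CPM against 160 and 55.4 CPM, so the genotypes overlapped widely (log2 difference 0.23, SE 0.65, limma adjusted p = 0.98). Monocyte/macrophage-like cells had 4.41, 5.21, 10.3 and 19.9 CPM, below every T-like and NK-like value. Microglia-like cells, at 0, 3.52, 9.38 and 9.71 CPM from 20 UMIs in all, and vascular-like cells, at 0.429, 1.63, 15.1 and 4.28 CPM, overlapped with those. In Krt8-high cells there were 5 corrected Ifng UMIs in 2732 cells. The 6 NK cell markers moved with the low Ifng level of microglia-like cells: summed, they stood at 9.90 and 104 CPM in heterozygous and 248 and 151 CPM in homozygous brains, each of the 6 higher in homozygous brains. In monocyte/macrophage-like cells, where Ifng was also higher in homozygous brains without overlap, they summed to 152 and 192 against 278 and 298 CPM (5 of 6 higher). The part of these markers in the Ifng levels of the 3 classes was not tested. Naive T/NK-like cells had 137 and 138 CPM in heterozygous and 98.2 and 114 CPM in homozygous brains (log2 difference -0.35, SE 0.22, limma adjusted p = 0.93), opposite in order to NK-like cells with metastases, although that difference between states was not tested. The tables were corrected separately, so levels of the 2 states are given side by side and not compared.

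The share of cells with at least 1 Ifng UMI gave the same order of classes. It was 37.8% and 39.7% of NK-like cells in heterozygous and 55.0% and 50% in homozygous brains (median 4136 raw UMIs), and 12.8%, 17.0%, 18.4% and 15.1% of T-like cells (median 5409). In Krt8-high cells, which should lack the gene, the share was 0.183% (95% exact binomial interval 0.0595% to 0.427%, for counting error only) at a median of 103002 raw UMIs. The shares were taken on corrected UMIs, with medians per cell of 12491 in Krt8-high, 11125 in NK-like and 11616 in T-like cells. What the correction did to low counts in Krt8-high cells was not tested. With 2 brains against 2 the exact two-sided permutation test cannot give a p below 0.33, the value found for NK-like cells, and it gave 0.667 for T-like cells. Thinned to 2000 corrected UMIs per cell the shares were 23.4% ± 4.95 and 6.67% ± 2.02 (SD, n = 4). In naive T/NK-like cells 34.8%, 30.0%, 36.4% and 30.7% of cells had an Ifng UMI.

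Within T-like cells, Ifng was concentrated in the cells the authors' surface antibody gates call CD8+ T. The labels do not say how the gates were drawn, and comparing them inside clusters was chosen after seeing the data. CD8+ cells stood at 17.2 and 977 CPM in heterozygous and 580 and 184 CPM in homozygous brains, CD4+ cells at 15.6, 32.8, 25.4 and 53.7 CPM, and the remaining T cells at 60.7, 17.3, 10.5 and 12.8 CPM. The CD8+ level was far above the others in 3 brains. In heterozygous brain 1, with only 20 CD8+ cells and 4 Ifng UMIs, it was not. With brain as a block, CD8+ minus CD4+ gave a log2 difference of 2.57 (SE 0.71, limma adjusted p = 0.043; 6.28% of all genes tested were called in that comparison), and other T minus CD8+ gave -2.93 (SE 0.71, limma adjusted p = 0.017; 9.02% called). Between other T and CD4+ cells Ifng did not pass (-0.36, limma adjusted p = 0.88; 4.27% of genes called). The 2 calls were lost when low genes were not filtered out (adjusted p = 0.24 and 0.14) and when heterozygous brain 2 (1.92, adjusted p = 0.19, and -2.18, 0.12), homozygous brain 1 (0.23 and 0.16) or homozygous brain 2 (0.14 and 0.12) was left out, and the first also with a pseudocount of 1 CPM (0.10), with limma throughout. Without heterozygous brain 1 the differences were larger, at 3.40 and -4.37.

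A few cells carried most of the message. Of 1800 Ifng UMIs in CD8+ T-like cells, the 10% of cells with the most held 92.6%, and of 1849 in NK-like cells the same share of cells held 63.0%. In heterozygous brain 2, single CD8+ cells held 576 and 418 of 1359 UMIs, and without the first of them the level there was 568 instead of 977 CPM. By share of cells with an Ifng UMI the CD8+ cells stood at 10.0%, 31.6%, 43.4% and 40.6%, where each high cell counts once.

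**Figure D1:**
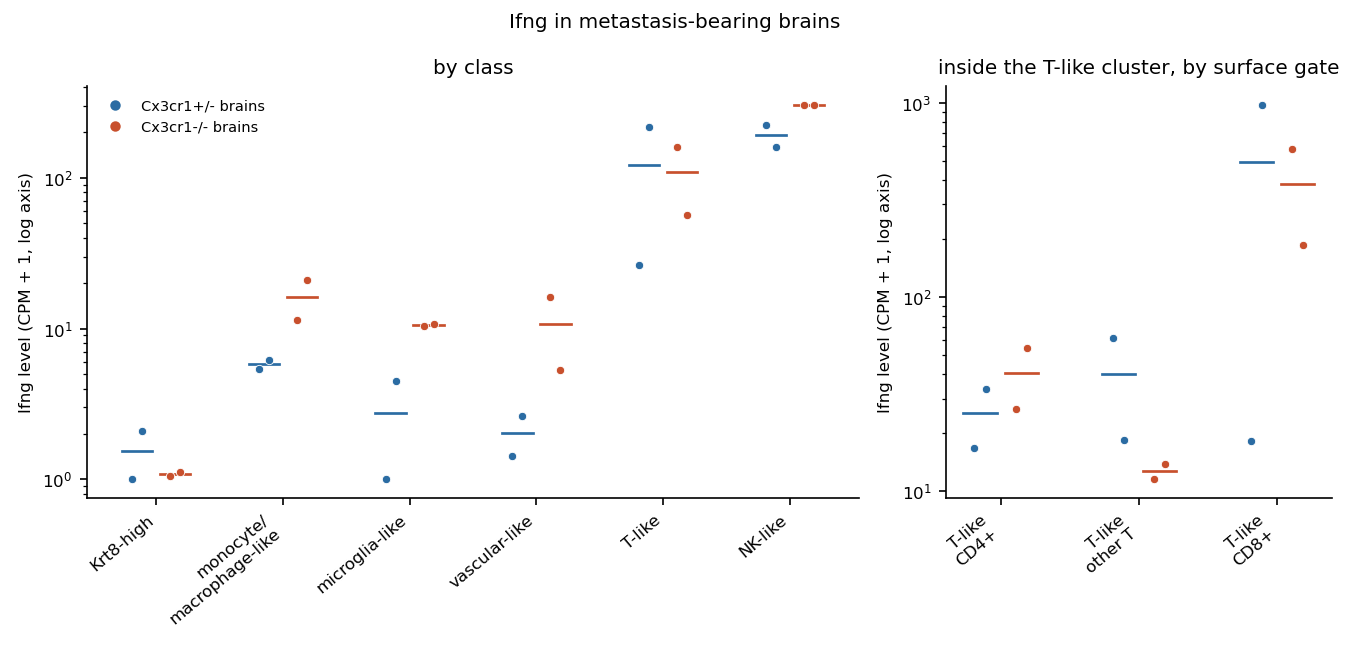
Ifng level in CPM plus 1 (log axis) in each metastasis-bearing brain, by class (left) and by the authors' T cell gates inside the T-like cluster (right); points are brains, blue for heterozygous and orange for homozygous, and bars are the mean of 2 brains. NK-like cells lie between 158 and 303 CPM and T-like cells between 25.5 and 217 CPM, and CD8+ cells range from 17.2 to 977 CPM.

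The chains of the interferon gamma receptor were spread differently over the classes. Ifngr1, the ligand-binding chain, was at 875, 1270, 1055 and 1339 CPM in NK-like cells (2 heterozygous, then 2 homozygous brains), above every T-like value (698, 634, 479 and 573 CPM). It stood at 452, 482, 335 and 495 CPM in microglia-like cells, which overlapped with T-like cells, and at 333, 217, 259 and 226 CPM in monocyte/macrophage-like cells. Vascular-like cells, at 103, 142, 61.2 and 64.1 CPM, and Krt8-high cells, at 2.41, 4.74, 0.691 and 1.34 CPM from 45 UMIs, were lowest, and neither overlapped with its neighbour in that order. The order of the classes is a description, since the clusters were drawn from the same RNA.

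Ifngr2, the signalling chain, was lowest where Ifngr1 was highest. NK-like cells had 0, 2.22, 2.81 and 0 CPM from 16 UMIs, and in the brains at 0 the limit set by 3 UMIs was 7.25 CPM in the first and 2.28 CPM in the last. Microglia-like cells stood at 132, 152, 188 and 192 CPM and monocyte/macrophage-like cells at 128, 140, 163 and 154 CPM, so these classes overlapped with each other and with no other. T-like cells (47.6, 44.9, 34.2 and 58.1 CPM) overlapped with vascular-like cells (29.2, 39.1, 61.2 and 55.6 CPM). In Krt8-high cells the levels were 8.62, 9.11, 5.63 and 5.97 CPM. Within T-like cells the low values were those of CD8+ cells, at 34.3 CPM in heterozygous brain 1 and 2.87, 3.17 and 5.17 CPM in the other 3. Other T cells had 34.7, 74.4, 66.1 and 114 CPM, and CD4+ cells 42.9, 19.2, 24.1 and 16.8 CPM. Other T minus CD8+ gave a log2 difference of 2.07 (SE 0.39, limma adjusted p = 0.0029), which held in all 8 alternatives, at 1.75 to 3.13 with adjusted p up to 0.049. CD8+ minus CD4+ (-0.91, limma adjusted p = 0.20) and other T minus CD4+ (1.16, limma adjusted p = 0.12) did not pass. CD8+ cells, high for Ifng in 3 brains, were thus low for Ifngr2 in those 3 brains.

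In naive brains Ifngr1 stood at 863, 610, 555 and 502 CPM in T/NK-like, 612, 586, 565 and 596 CPM in microglia-like and 199, 152, 166 and 173 CPM in vascular-like cells. Ifngr2 there was again highest in microglia-like cells, at 153, 137, 185 and 168 CPM, against 59.1, 84.4, 50.4 and 37.7 CPM in vascular-like and 36.1, 39.0, 12.3 and 49.8 CPM in T/NK-like cells. Microglia-like cells did not overlap with either class for Ifngr2, while for Ifngr1 they overlapped with T/NK-like cells.

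The type I receptor chains were more evenly spread outside the Krt8-high cells. Ifnar1 stood at 105, 109, 103 and 106 CPM in monocyte/macrophage-like cells, 68.7, 98.6, 112 and 85.5 CPM in vascular-like, 90.1, 97.8, 73.2 and 95 CPM in T-like and 62.9, 86.4, 79.2 and 73.0 CPM in NK-like cells. Each of these overlapped with the next, and microglia-like cells lay below them all at 35.9, 47.5, 36.6 and 41.3 CPM. Ifnar2 divided the classes another way. Monocyte/macrophage-like (95.5, 110, 97.8 and 110 CPM), microglia-like (94.2, 93.3, 94.8 and 82.5 CPM) and vascular-like cells (90.6, 110, 101 and 59.9 CPM) lay above every NK-like (29.0, 37.3, 37.0 and 24.3 CPM) and T-like value (24.6, 37.1, 27.9 and 27.7 CPM). In Krt8-high cells Ifnar1 lay between 2.55 and 4.39 CPM and Ifnar2 between 4.26 and 8.38 CPM, in each case below every brain of every other class. The depth of Krt8-high cells had been corrected downwards, as given above. The effect of this on the low levels of the 4 receptor chains in that class was not tested.

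**Figure D2:**
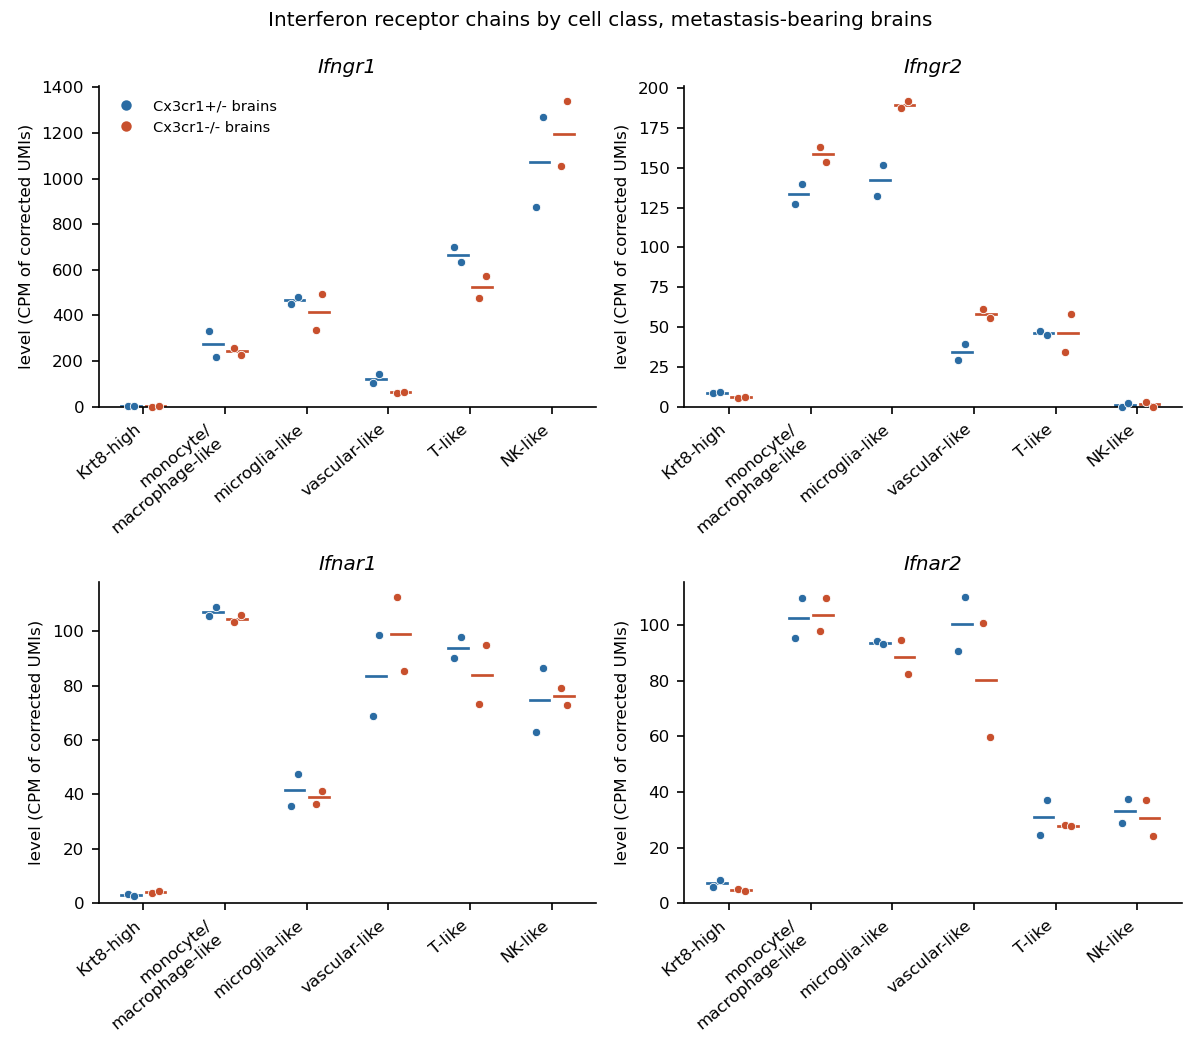
Levels of the 4 receptor chains in CPM of corrected UMIs (linear axes from 0) by class in metastasis-bearing brains; points are brains, blue for heterozygous and orange for homozygous, and bars are the mean of 2 brains. Ifngr1 reaches 1339 CPM in NK-like cells, where Ifngr2 lies between 0 and 2.81 CPM.

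The type I ligands themselves gave few UMIs. Of 20 type I and type III interferon genes listed for this purpose, 2 had a row in the metastasis table and the others were not analysed here. Ifnb1, interferon beta, had 436 UMIs in 142 of 8443 cells, and Ifnz had 7 UMIs. In monocyte/macrophage-like cells Ifnb1 stood at 23.7 and 13.2 CPM in heterozygous and 5.70 and 8.37 CPM in homozygous brains, so the heterozygous brains were higher without overlap, and the log2 difference of -0.72 (SE 0.20) did not pass (limma adjusted p = 0.36). Both homozygous values lay below the filter of a mean above 10 CPM, which the gene passed through its heterozygous brains. In naive brains Ifnb1 had 43 UMIs in 21 of 2736 cells.

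Stat2 and Irf9, the partners in the type I complex, had their highest means in monocyte/macrophage-like cells, where both overlapped with vascular-like cells, the next class. Stat2 stood there at 57.4 and 54.9 CPM in heterozygous and 86.1 and 80.6 CPM in homozygous brains (log2 difference 0.50, SE 0.11, limma adjusted p = 0.25), and Irf9 at 49.7 and 57.4 against 76.4 and 74.7 CPM (0.43, SE 0.12, limma adjusted p = 0.36). Homozygous brains were above heterozygous ones for both genes, without overlap. Irf9 showed the same order without overlap in vascular-like cells, at 39.1 and 45.7 against 75.5 and 61.3 CPM, in microglia-like cells, at 39.2 and 49.3 against 55.4 and 63.1 CPM, in NK-like cells, at 36.3 and 36.9 against 44.5 and 47.1 CPM, and in Krt8-high cells, at 8.96 and 12.8 against 15.9 and 18.0 CPM. In T-like cells the log2 difference of Irf9 was -0.01. Stat2 was higher without overlap in vascular-like cells too (0.50). Its genotypes overlapped in microglia-like (0.03), T-like (-0.09), Krt8-high (0.07) and NK-like cells (0.20). None of these differences passed. Per class, between 13.5% (NK-like) and 23.4% (vascular-like) of all genes tested were higher in homozygous brains without overlap.

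Irf1, the factor downstream of interferon gamma, was lower in homozygous brains in microglia-like cells with metastases. It stood there at 304 and 251 CPM in heterozygous and 217 and 134 CPM in homozygous brains, with no overlap (log2 difference -0.67, SE 0.23, limma adjusted p = 0.49). In naive microglia-like cells it stood at 165, 204, 222 and 169 CPM, with the genotypes overlapping (0.07). The interaction, that is, the genotype difference with metastases minus that in naive brains, was -0.74 (SE 0.28, limma adjusted p = 0.57). In monocyte/macrophage-like cells heterozygous brain 2 stood apart at 318 CPM, against 156 in the other heterozygous brain and 145 and 151 CPM in the homozygous brains. The same brain was highest in Krt8-high cells (57.2 against 14.1, 19.0 and 20.1 CPM) and in T-like cells (195 against 96.0, 137 and 117 CPM). In NK-like cells Irf1 lay between 99.1 and 151 CPM and in vascular-like cells between 82.2 and 91.4 CPM.

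Irf7 was higher in homozygous than in heterozygous metastasis-bearing brains in every class tested, without overlap. In monocyte/macrophage-like cells, where it was highest, it stood at 635 and 582 CPM against 851 and 967 CPM (log2 difference 0.57, SE 0.12, limma adjusted p = 0.23). Microglia-like cells had 40.7 and 57.5 CPM against 138 and 107 CPM (1.17, SE 0.21, limma adjusted p = 0.15), and vascular-like cells 82.4 and 108 CPM against 237 and 185 CPM (1.07, SE 0.19, limma adjusted p = 0.21). These are the largest differences of the 9 genes in those 2 classes. Microglia-like cells numbered 390 and 144 in heterozygous and 85 and 35 in homozygous brains. In homozygous brain 2 an Irf7 UMI was found in 13 of the 35. Heterozygous brain 1 held 37 NK-like cells. NK-like cells had 126 and 134 CPM against 245 and 199 CPM (0.72, SE 0.14, limma adjusted p = 0.28). Krt8-high cells had 23.1 and 33.9 CPM against 49.3 and 75.9 CPM (0.91, SE 0.21, limma adjusted p = 0.75). T-like cells showed the smallest difference and nearly met, at 221 and 140 CPM against 240 and 225 CPM (0.38, SE 0.17, limma adjusted p = 0.97). No class passed the threshold of 0.05. The difference was positive under every alternative in all 6 classes, and it passed only in fits that left out 1 brain, in 1 to 3 of the 4 such fits per class. The 6 classes come from the same 4 brains and are not 6 independent observations.

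The share of all tested genes that were higher in homozygous brains without overlap was 14.8% in Krt8-high, 21.4% in monocyte/macrophage-like, 19.7% in T-like, 21.6% in microglia-like, 13.5% in NK-like and 23.4% in vascular-like cells, so a separation in 1 class was common. Separation in all 6 was seen for 13 of the 4550 genes tested in all 6 (0.286%), Irf7 among them.

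In naive brains Irf7 did not show that order. Microglia-like cells stood at 9.17 and 21.9 CPM in heterozygous and 7.12 and 8.92 CPM in homozygous brains (log2 difference -0.46, SE 0.20, limma adjusted p = 0.49), and within the authors' microglia gate the difference was 0.031 (limma adjusted p = 0.98). The T/NK-like cells (78.3, 34.4, 76.7 and 64.1 CPM) and vascular-like cells (18.5, 64.1, 60.5 and 47.1 CPM) of naive brains overlapped between genotypes. The interaction in microglia-like cells was 1.63 (SE 0.34, limma adjusted p = 0.30) and did not pass. In naive microglia-like cells Irf7 passed the filter of a mean above 10 CPM narrowly, at 11.8 CPM. Heterozygous brain 2 alone was above 10 CPM there, so the naive part of the interaction rests on low levels. In 85 cells that both tables hold as microglia-like, Irf7 stood at 26.5 CPM in one table and 27.7 CPM in the other, a ratio of 0.954, which is the effect of the separate correction on this gene in those cells.

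Markers of other cells moved with Irf7 in some classes and not in others. With metastases, in microglia-like cells, the 7 monocyte markers, a list whose cell class has the highest Irf7, summed to 69.1 and 155 CPM in heterozygous and 251 and 228 CPM in homozygous brains, with 3 of the 7 higher in homozygous brains, none at 0 in all brains. The 7 microglia markers summed to 11852, 11520, 10891 and 10184 CPM, with 0 of 7 higher in homozygous brains. The NK cell markers there, with sums given above, and the 8 macrophage markers were also higher in homozygous brains without overlap. The macrophage sums were 10985 and 9927 against 12044 and 12626 CPM (5 of 8 higher). The dendritic cell sum was lower in homozygous brains, and the T cell, neutrophil and tumour-like sums overlapped. In vascular-like cells the monocyte sum ran the other way, at 179 and 174 against 81.4 and 94.1 CPM, while Irf7 was higher in homozygous brains. In monocyte/macrophage-like cells 6 of the 7 monocyte markers were higher in homozygous brains, with sums of 7553, 7160, 9170 and 10861 CPM. There 7 of 7 neutrophil markers had a higher mean in homozygous brains, but their sums overlapped, at 720, 385, 357 and 3624 CPM. The counts were 3 of 8 for macrophage, 2 of 5 for tumour-like, 1 of 6 for T cell, 0 of 7 for microglia and 0 of 8 for dendritic cell markers. In T-like cells 4 of the 7 monocyte markers were higher, with sums of 1020 and 1038 against 1221 and 1253 CPM. The share of Krt8-high cells and the median depth over all cells of a brain, given above, were also higher in both homozygous brains. In each brain Krt8-high cells had less Irf7 than microglia-like cells. Within classes, median raw UMIs were higher in both homozygous brains in vascular-like (7767 and 7749 against 10982 and 12320) and T-like cells (4773 and 5431.5 against 5518.5 and 5450). They overlapped in microglia-like (7850.5 and 8928.5 against 12596 and 8335), monocyte/macrophage-like and NK-like cells. In Krt8-high cells they were lower in both homozygous brains. The part of these measures in the Irf7 levels was not tested further.

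**Figure D3:**
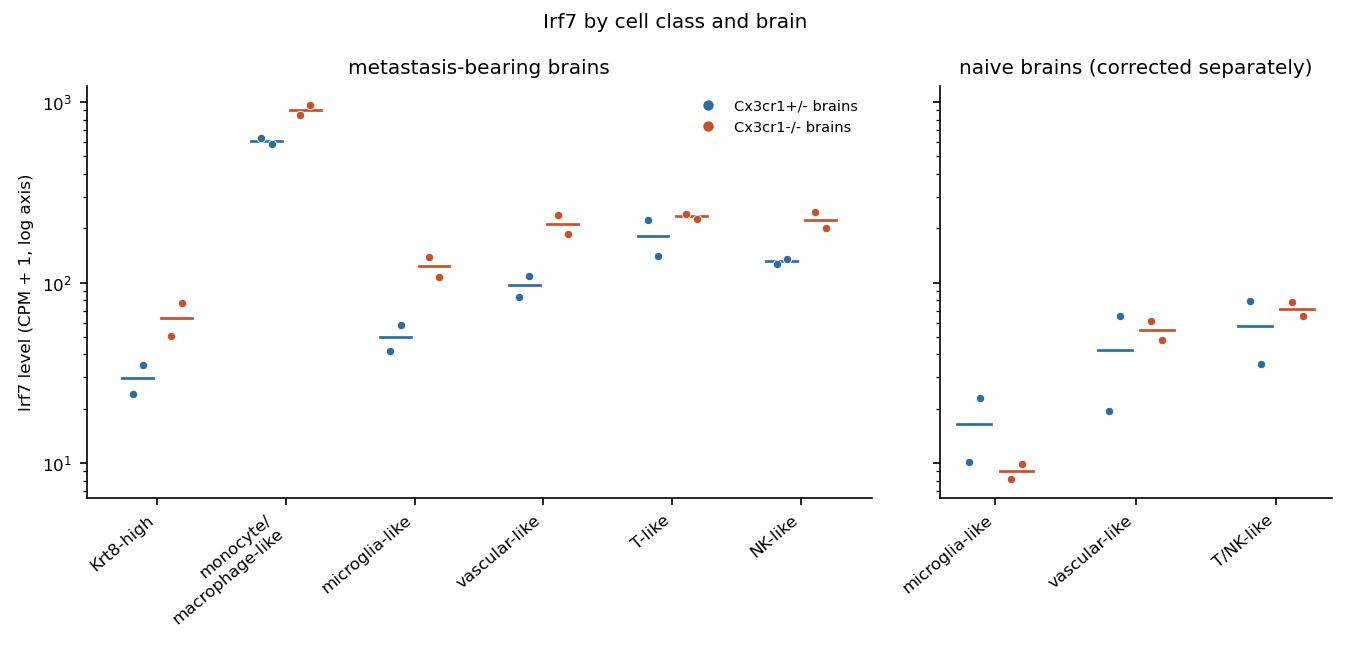
Irf7 level in CPM plus 1 (log axis) by class in metastasis-bearing (left) and naive brains (right, corrected separately); points are brains, blue for heterozygous and orange for homozygous, and bars are the mean of 2 brains. With metastases both homozygous brains lie above both heterozygous brains in each class, from 49.3 and 75.9 against 23.1 and 33.9 CPM in Krt8-high cells to 851 and 967 against 635 and 582 CPM in monocyte/macrophage-like cells.

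Across the 9 genes no genotype difference was called. In metastasis-bearing brains 45 combinations of gene and class passed the filter of a mean above 10 CPM, and 0 of 45 had an adjusted p under 0.05 with limma, 16 having an unadjusted p under 0.05. Among all genes 7.09% of tests had such an unadjusted p, and the share called was 0.025% in Krt8-high, 0.0143% in monocyte/macrophage-like, 0.0814% in microglia-like, 0.0476% in NK-like and 0% in both T-like and vascular-like cells. Ifng passed the filter in T-like and NK-like cells, Ifngr2 in all but Krt8-high and NK-like cells, and in Krt8-high cells the 4 transcription factors were tested. Leaving out 1 brain left 3 brains and gave between 2 and 9 calls among these genes, as such fits called many more of all genes too. Among the 16 were 4 differences in receptor chains. Ifngr1 was lower in homozygous brains in T-like (-0.34, SE 0.10, limma adjusted p = 0.79) and vascular-like cells (-0.85, SE 0.19, limma adjusted p = 0.27), and Ifngr2 was higher in microglia-like (0.39, SE 0.15, limma adjusted p = 0.54) and vascular-like cells (0.64, SE 0.20, limma adjusted p = 0.38). In naive brains limma called 0 of 25 tests, 4 of them with unadjusted p under 0.05, beside 0.572% of all genes called in microglia-like, 0.215% in T/NK-like and 0% in vascular-like cells. The 4 were Ifngr2 (0.27) and Irf7 (-0.46) in microglia-like and Ifngr1 (-0.45) and Irf9 (0.80) in T/NK-like cells. Lower Ifngr1 and higher Ifngr2 in homozygous brains were thus not limited to brains with metastases. For the interaction 0 of 8 were called and 2 had an unadjusted p under 0.05, beside 0.0142% of all genes.

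**Figure D4:**
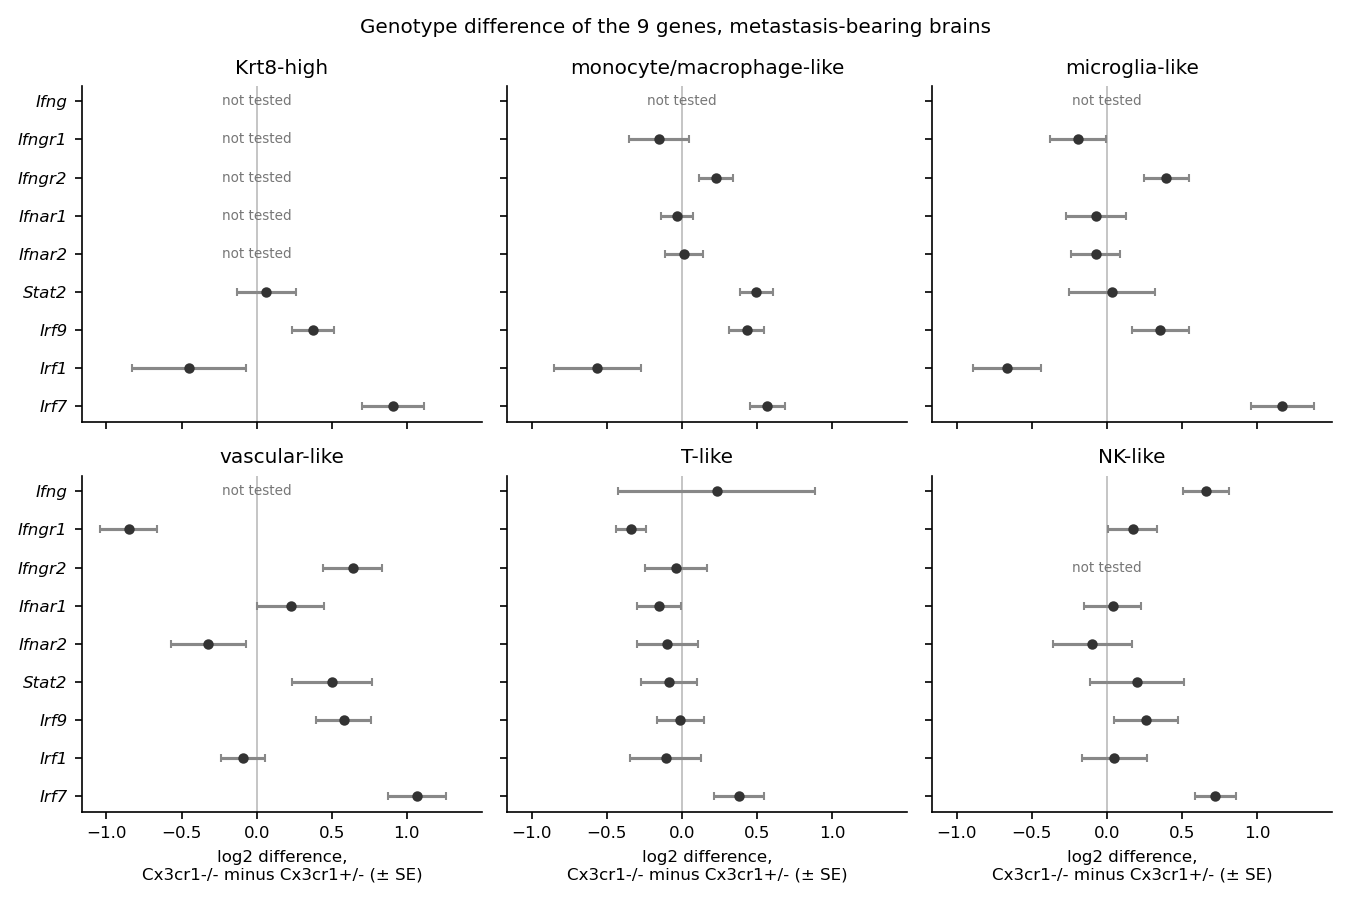
Log2 difference of each of the 9 genes between homozygous and heterozygous metastasis-bearing brains, on the log2(CPM + 10) scale with its standard error, 1 panel per class and 2 brains per genotype; "not tested" marks genes under the filter. Irf7 lies right of 0 in all 6 panels, between 0.38 and 1.17, and no difference was called.

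The authors' surface gates gave a comparison across cell types that did not use the clusters. Each gate was set against the mean of the other gates of the same brain. In metastasis-bearing brains 9 gates could be tested, and 37 of 81 tests of the 9 genes were called with limma, 18 higher and 19 lower. Between 9.69% and 58.6% of all genes were called per gate, so the counts are not particular to these genes. The log2 differences below had standard errors of 0.45 for Ifng and 0.11 to 0.22 for the other 8 genes, and those called had limma adjusted p from 5.4e-07 (Irf7, Ly6C-high) to 0.045 (Ifnar2, CD4+ T).

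The Ly6C-high gate, 92.4% of whose 760 cells were monocyte/macrophage-like, was higher in 5 genes, with log2 differences of 1.57 for Irf7, 1.12 for Ifngr2, 0.80 for Stat2, 0.54 for Irf1 and 0.51 for Ifnar2, and lower in Ifng and Ifngr1 (45.3% of all genes called). The CD8+ T gate was higher in Ifng (2.89), Ifngr1 (0.56) and Ifnar1 (0.32) and lower in Ifngr2 (-1.39) and Ifnar2 (-0.51; 40.1% called). The CD4+ T gate and the other T gate were both higher in Ifngr1 (0.80 and 0.56) and lower in Ifnar2 (-0.48 and -0.52), with 24.3% and 27.4% of genes called. All T cell gates therefore shared high Ifngr1 and low Ifnar2.

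In the Ly6C-low gate Ifng (1.76), Irf7 (0.69) and Ifngr1 (0.69) were higher (9.69% called), and of its 1311 cells 594 were monocyte/macrophage-like and 557 NK-like. The CD45-low CD11b+ gate, 60.1% microglia-like, was higher in Ifngr2 (0.80) and lower in Ifng (-1.53), Irf7 (-1.04) and Ifnar1 (-0.61; 35% called). The CD45-low CD11b- gate, 47.2% vascular-like, was lower in Ifngr1 (-1.25), Irf7 (-1.25), Ifngr2 (-0.89), Irf1 (-0.73) and Ifnar1 (-0.31; 47.2% of genes called). The Ly6C+ Ly6G+ gate, 59.7% neutrophil-like, was higher in Ifngr2 (0.86), Irf7 (0.75) and Ifnar2 (0.58) and lower in Ifng, Ifngr1 and Ifnar1 (58.6% called). The mixed CD45-high CD11b- gate was higher in Ifnar1 (0.85) and lower in Ifngr2 (-0.81) and Irf9 (-0.48; 31% called). Inside monocyte/macrophage-like cells, Ly6C-high minus Ly6C-low gave 0.23 for Irf7 (SE 0.07, limma adjusted p = 0.044; 20.4% of genes called), at 712, 667, 889 and 1057 CPM against 618, 480, 846 and 929 CPM, higher in 4 of 4 brains. That call was lost when any brain was left out (adjusted p = 0.050 to 0.20) and without the filter (0.12), and the other 7 genes tested there did not pass.

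In naive brains 14 of 36 gate tests were called with limma, with standard errors of 0.17 to 0.29 and adjusted p of the calls from 3.5e-05 (Ifng, Ly6C-low) to 0.037 (Irf7, border macrophage). The microglia gate, 69.6% of whose 1694 cells were microglia-like, was higher in Irf1 (1.15), Ifngr2 (0.90), Ifngr1 (0.79) and Ifnar2 (0.46) and lower in Ifng (-1.02) and Irf7 (-0.89; 47.1% called). The Ly6C-low gate was higher in Ifng (2.26) and Irf7 (2.04; 21.3% called). Its 168 cells were mixed: 33.9% lay in an unnamed antigen-presenting cluster, 21.4% were T/NK-like and 14.3% lay in the unnamed neutrophil/monocyte cluster. Krt8-high and microglia-like cells made up 11.9% each. No T cell or NK cell gate was among the naive gates tested. The border macrophage gate was lower in Ifng, Irf7 and Irf1 (20.5% called), and 30.1% of its cells lay in the Krt8-high cluster. The CD45-low CD11b- gate was lower in Ifngr2, Ifngr1 and Irf1 (38.3% called).

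Other genes of the pathway gave few calls by genotype. In metastasis-bearing brains none of the other interferon regulatory factors, the inhibitors of interferon signalling, the inducers of Ifng or the genes known to respond to interferon gamma was called in any class, with limma over all genes. Interferon gamma-responsive genes, 16 in all, included Gbp2, Iigp1 and Cxcl9. Of those tested, 8 of 10 were higher in homozygous brains in microglia-like cells (median log2 difference 0.32). The counts were 8 of 11 in vascular-like (0.49), 7 of 9 in NK-like (0.22) and 7 of 12 in T-like cells (0.03). They were 2 of 13 in monocyte/macrophage-like (-0.19) and 1 of 8 in Krt8-high cells (-0.36). Of all genes tested, between 42.7% (Krt8-high) and 55.3% (T-like) were higher in homozygous brains. Cxcl9 was lower in microglia-like (-0.71), vascular-like (-0.33), monocyte/macrophage-like (-1.18) and Krt8-high cells (-1.21) and higher in T-like cells (0.51). Medians over all genes lay between -0.03 and 0.02. In naive microglia-like cells Socs3, a feedback inhibitor of cytokine receptors, fell from 1737 and 1812 CPM to 1379 and 1308 CPM (-0.40, SE 0.07, limma adjusted p = 0.0034), the only gene of these lists that was called.

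For each of the 9 genes, the 2 genes whose log2 levels over the 6 class means were most alike were named from 11178 genes, by Pearson's r over 6 points from the same brains, as a description. Ifng lay closest to Xcl1, a chemokine of NK and T cells (r = 0.998), and to Lamb3 (0.997). For Ifngr1 they were Mbnl1 (0.991) and Apobec3 (0.989), for Ifngr2 Tet3 (0.977) and Znfx1 (0.975), for Ifnar1 Svbp (0.996) and Scp2 (0.992), and for Ifnar2 Fundc1 (0.991) and Copa (0.988). The transcription factors lay closest to Bcl3 (0.989) and Ifih1 (0.988) for Stat2, Yipf1 (0.998) and Cep350 (0.991) for Irf9, Ppm1h (0.998) and Gadd45b (0.995) for Irf1, and Jarid2 (0.988) and Ube2a (0.985) for Irf7. No 2 of the 9 genes named each other.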

How the data were processed

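The deposited expression values, 1 table per state, are natural log values: the authors deposited ln(1 + corrected UMIs), which were whole numbers (to within 1e-06) in 100% of nonzero entries after the log was undone, and each table was depth-corrected alone. Cell clusters, hashtags, antibody gates and raw UMI counts per cell came from the deposited metadata. The submitters' processing notes name Cell Ranger 3.1, Seurat 3.1.1 and mm10. Corrected UMIs were summed per brain and class, scaled to CPM and tested as log2(CPM + 10) with limma 3.58.1 (R 4.3.3; variance trend, genes with mean above 10 CPM, Benjamini-Hochberg over all genes, threshold 0.05), on 2 brains against 2. As the values were corrected, no count model was used. Gates were compared with brain as a block. The labels number brains within a table only, so brains were not paired across genotypes. The scripts were tested on simulated data. The named genes are the 9 members, their 2 nearest genes, and list genes past the threshold or needed to account for a list. Barcodes in both tables were left out. Members and lists were chosen with earlier results of these data known. Depth per brain ranged from 2507823 to 35782513 corrected UMIs. Alternatives were another pseudocount, filter, scaling, no trend, all cells, 1 depth range, means of log values and leaving out each brain.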

Additional observations from a re-analysis of the deposited data

Results flagged for a closer look

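In naive brains, 1 cluster that the comparisons above do not use, because it showed neutrophil and monocyte markers together and stayed unnamed, had Irf7 at a mean of 737 CPM. The 4 brains gave 631 and 644 CPM (heterozygous) and 449 and 1223 CPM (homozygous), from 171 cells. These levels are above every class tested in naive brains, where the highest single value was 78.3 CPM in T/NK-like cells. In that cluster 424 barcodes occurred in both tables and had been left out, more than were kept. No reason for the level was tested.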

How the results depend on the processing

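In metastasis-bearing brains none of the 9 genes was called by genotype under any alternative that kept all 4 brains, and leaving out 1 brain gave 9 calls without either heterozygous and 2 without either homozygous brain, where the lone brain of a genotype is assumed to vary like the others. In naive brains there was 1 call with all deposited cells and 0 to 1 without a brain, and for the interaction 0 to 2 (2 without homozygous metastasis-bearing brain 1). Over all genes the 12 calls with metastases became 5 without the filter, 3 without the variance trend, 22 from means of ln values and 2 in cells of 5000 to 15000 raw UMIs, and 121 to 2333 without a brain. The 60 naive calls became 2 without the trend, 38 in that depth range and 47 to 158 without a brain. The 1 interaction call (over all genes) became 0 with a pseudocount of 1 CPM, without the filter, without the trend, in that depth range and from means of ln values, and 0 to 313 without a brain. Gate calls of the 9 genes went from 37 to between 24 (without homozygous brain 1) and 39 without a brain, and in naive brains from 14 to 27 with all deposited cells and 10 to 11 without a brain. Inside T-like cells 3 calls became 1 without the filter, 1 without either homozygous brain, 2 without heterozygous brain 2 and 6 without heterozygous brain 1, and inside monocyte/macrophage-like cells 1 call became 0 without the filter, 2 with median-ratio scaling, 2 with all deposited cells and 0 to 1 without a brain. Shares of cells with an Ifng UMI moved from 15.8% to 10.9% (at least 2 UMIs) and 6.67% (thinned) in T-like, from 45.6% to 23.4% (thinned) in NK-like, from 31.4% to 15.6% (thinned) in CD8+ T-like and from 33.0% to 19.1% and 15.9% in naive T/NK-like cells, and without a brain lay between 14.9% and 16.8%, 42.5% and 48.2%, 27.4% and 38.5%, and 31.8% and 33.9%. Signs turned for Ifngr1 in microglia-like cells (-0.47 to 0.083 without a brain, the latter without homozygous brain 1, limma adjusted p = 0.72), for Ifng in T-like cells (-1.11 without heterozygous brain 1, limma adjusted p = 1.4e-11, and 1.57 without heterozygous brain 2) and for Irf7 in naive microglia (0.031 in the authors' gate). The causes were not tested. No paired analysis was possible because the labels do not match brains across the genotypes. Depth limits the low values. With metastases, Ifng rests on few UMIs in microglia-like (20 in all), vascular-like (24) and Krt8-high cells (5), and Ifngr2 on 16 in NK-like cells. In naive brains Ifng had 3 UMIs in microglia-like and 6 in vascular-like cells. Monocyte/macrophage-like cells held more Ifng UMIs, 213 over the 4 brains.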

Other observations

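The 13 genes that were higher in both homozygous than in both heterozygous metastasis-bearing brains in all 6 classes were picked out after their values were seen. They were Cmpk2, Eif2ak2, Ifi213, Ifit1, Ifit2, Ifit3, Irf7, Isg15, Oasl2, Rtp4, Slfn2, Snx1 and Usp18. Isg15 and Usp18, a ubiquitin-like modifier and the protease that removes it, had median log2 differences over the classes of 0.76 and 0.82, with lowest values of 0.67 and 0.53. Ifit3, one of the interferon-induced proteins with tetratricopeptide repeats, had the highest median, 1.16, with a range of 0.64 to 1.79. Ifit2 ranged from 0.29 to 2.23 and Ifit1 from 0.48 to 1.10. Irf7 had a median of 0.81. Eif2ak2, a kinase that senses double-stranded RNA, had a median of 0.47, and Snx1, which sorts proteins in endosomes, the lowest of the 13 at 0.33. The classes share their 4 brains, so these genes rest on 2 brains against 2.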
